A study of Mus musculus with 3 samples.

Results

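The matrix metalloproteinases Mmp2, Mmp3, Mmp9, Mmp12, Mmp14 and Mmp19 and the tissue inhibitors of metalloproteinases Timp1, Timp2, Timp3 and Timp4 were followed across the cell types of the mouse ascending aorta. These 10 genes were taken by symbol from the 32285 gene rows common to all 3 libraries, without a cutoff on any measured value. Earlier results of these data were known when the genes were chosen. Ascending aortas of male C57BL/6J mice were digested with enzymes and profiled at postnatal day 45 (P45) by droplet single-cell RNA-seq, in 1 library per condition. The WT library pooled 3 mice. The mgR library pooled 3 mice homozygous for the hypomorphic Fbn1mgR allele, which lowers fibrillin-1 in every tissue and is used as a model of Marfan syndrome with thoracic aortic aneurysm. The mgR-LOS library pooled 4 Fbn1mgR/mgR mice that drank losartan, a blocker of the angiotensin II type I receptor, at 0.6 g/L from P16. The labels did not say whether the mgR animals drank vehicle, and mutant mice of the drug experiment were picked on the width of the aorta by ultrasound. With 1 pooled library per condition nothing could be tested against the spread between animals, so no p-value is given.

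Matrix metalloproteinases are zinc-dependent endopeptidases, most of them secreted as inactive precursors, that cut collagens, elastin, proteoglycans and other matrix proteins. TIMP proteins occupy the active site of these enzymes, and TIMP-2 together with the membrane enzyme encoded by Mmp14 also takes part in activating the Mmp2 precursor. In the aortic wall Mmp2, Mmp9 and Mmp12 are best known for degrading elastic fibers during aneurysm growth, whereas TIMP-3 binds to the matrix itself and also inhibits ADAM proteases.

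The positions of the genes, all protein coding, were taken from GENCODE M21 on GRCm38 by the gene identifiers of the deposited files. Mmp12 (chr9:7344381-7369499, + strand) and Mmp3 (chr9:7445822-7455975, + strand) belong to the Mmp cluster of chromosome 9 and are separated by 76322 bases. Mmp2 (chr8:92827291-92853420), Mmp9 (chr2:164940780-164955850), Mmp14 (chr14:54431612-54445364) and Mmp19 (chr10:128790910-128800824) lie on the + strand, and Timp2 (chr11:118301069-118355740) on the - strand. The other TIMP genes each sit within a synapsin gene of the opposite strand. Timp1 (chrX:20870166-20874735, + strand) lies in an intron of Syn1 and overlaps 0 of its exons, Timp3 (chr10:86300372-86349506, + strand) lies inside Syn3 and overlaps 1 exon, and Timp4 (chr6:115241892-115252205, - strand) lies inside Syn2 and overlaps 2 exons.

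The promoters of Mmp3 and Timp1 are shown because these genes had the largest ratios of mgR over WT in fibroblast-gated cells. Each sequence holds the 250 bases before the annotated start (RefSeq, GRCm38.p6, + strand, 5′ to 3′), with capitals marking matches to the AP-1-type motif TGANTCA or to the ETS-type motif AGGAAG, both searched on either strand.
Mmp3 chr9:7445572-7445821: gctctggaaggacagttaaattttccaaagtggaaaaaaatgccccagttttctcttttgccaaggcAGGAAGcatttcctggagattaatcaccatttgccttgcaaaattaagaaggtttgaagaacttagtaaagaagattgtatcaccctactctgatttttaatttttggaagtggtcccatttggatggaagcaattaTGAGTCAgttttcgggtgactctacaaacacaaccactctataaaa
Timp1 chrX:20869916-20870165: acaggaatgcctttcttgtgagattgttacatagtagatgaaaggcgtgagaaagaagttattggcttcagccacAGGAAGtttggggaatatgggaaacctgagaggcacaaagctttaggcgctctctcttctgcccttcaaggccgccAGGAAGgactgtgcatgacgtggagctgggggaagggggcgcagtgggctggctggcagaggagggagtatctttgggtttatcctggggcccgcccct
In Mmp3 the AP-1-type match stood 46 to 40 bases before the start and the ETS-type match 183 to 178 bases before it. Timp1 had ETS-type matches 175 to 170 and 99 to 94 bases before the start and no TGANTCA in this window. Over 32817 promoters of the same length, 6.75% held a TGANTCA and 29.5% an AGGAAG. Of the 7 members with a promoter entry, Mmp12 had 2 starts, with an AGGAAG before the first and a TGANTCA before the second, Mmp14, Timp3 and Timp4 held 1 AGGAAG each, and Timp2 held neither motif. A match is a string of letters and was not tested as a binding site. The promoters of Mmp2, Mmp9 and Mmp19 were not analysed here.

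The WT, mgR and mgR-LOS libraries held 83338726, 123956320 and 121436873 unique molecular identifiers (UMIs), and 5361, 8076 and 12721 barcodes were kept after limits on genes and mitochondrial UMIs. The median depth of kept barcodes was lowest in mgR-LOS (8334 UMIs against 13636 in WT and 12410.5 in mgR). Pairs of libraries shared 11 to 34 kept barcodes. Fbn1 stood at 361, 150.1 and 117 counts per 1000000 UMIs (CPM) over all kept barcodes of WT, mgR and mgR-LOS, the direction that the genotype labels call for. Barcodes were assigned to classes by panels of marker genes, which gave 3632, 3062 and 7881 smooth muscle cell (SMC) barcodes in WT, mgR and mgR-LOS, 1308, 2424 and 3044 fibroblast, 104, 205 and 162 endothelial cell (EC), 87, 909 and 537 macrophage and 12, 320 and 145 monocyte and dendritic barcodes. In these classes the panel of the class itself was the largest of all class panels by median. Barcodes that met several gates (67, 357 and 550) or no gate (67, 361 and 243) were held apart.

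All levels below are CPM, the UMIs of a gene per 1000000 UMIs of all barcodes of a class in a library, with the exact 95% Poisson interval in parentheses, and a ratio carries an exact 95% interval from the same counts. These intervals cover counting error only. A 3′ tag method counts molecules whatever the length of the transcript, and fewer cells with many molecules cannot be told apart from more cells with few in a summed level. RNA free in the droplets gives every class some UMIs of abundant genes. T and NK barcodes, which should lack most of these transcripts, held 11.6 CPM of Mmp2, 2.89 CPM of Mmp3, 8.66 CPM of Timp1 and 101 CPM of Timp2 in mgR. Levels near these values in another class are read as background.

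Fibroblast-gated cells held the highest level of Mmp2, Mmp3, Timp1, Timp2 and Timp3 in all 3 libraries among the SMC, fibroblast, EC and macrophage classes, whereas Mmp9 and Mmp12 were highest in myeloid cells. Mmp14 was spread over all 4 classes, and Timp4 was found in SMC and EC.

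**Figure D1:**
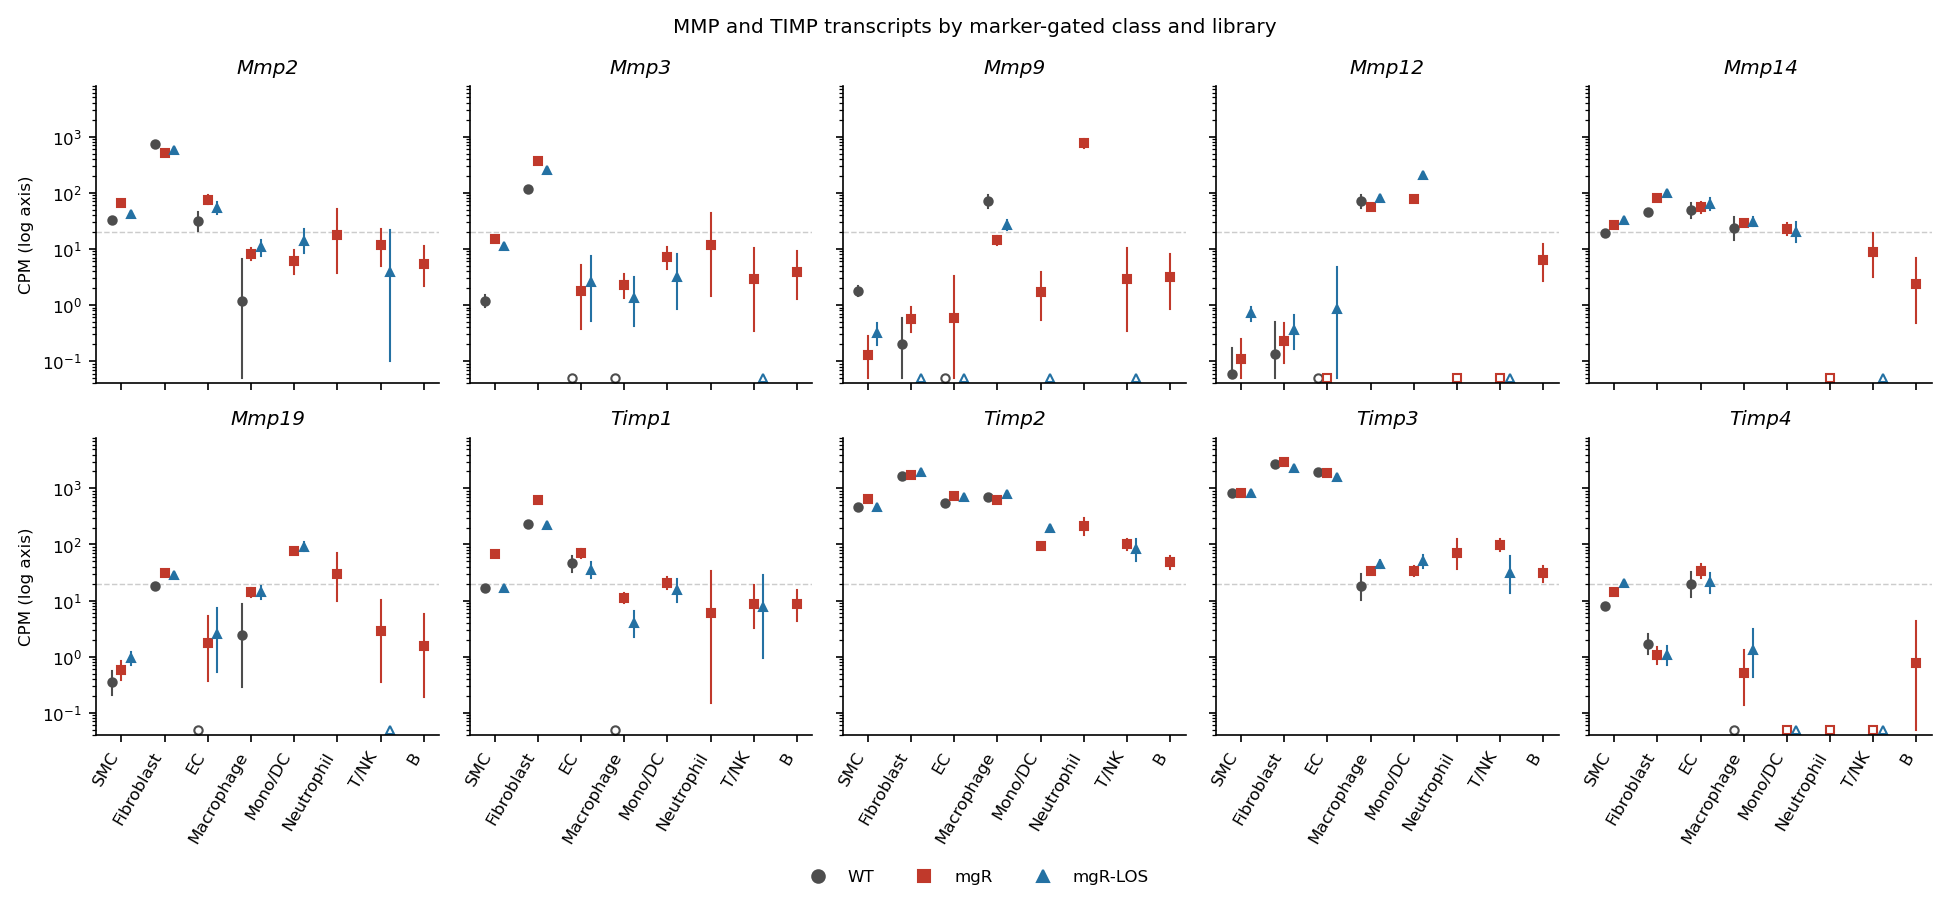
Level of each of the 10 genes in CPM (log axis) by marker-gated class, with 1 point per library (WT, mgR and mgR-LOS) and bars for the exact 95% Poisson interval, which covers counting error only. Open symbols on the lower axis mark 0 UMIs, the dashed line marks 20 CPM, and classes under 50 barcodes are left out. Timp2 and Timp3 stand above 400 CPM in SMC, fibroblast and EC barcodes, Mmp12 stands above 50 CPM in macrophage and in monocyte and dendritic barcodes, and Mmp9 is highest in neutrophils.

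Among the enzymes that fibroblasts held, Mmp2, which encodes gelatinase A, was the most abundant. In fibroblasts it stood at 747 CPM (733–761) in WT, 514 CPM (506–523) in mgR and 570.0 CPM (561–579) in mgR-LOS. In EC it stood at 31.7 CPM in WT, 75.7 CPM in mgR and 54.4 CPM in mgR-LOS, close to the SMC values of 33.1 CPM in WT, 65.2 CPM in mgR and 42.5 CPM in mgR-LOS. The EC and SMC intervals overlapped in WT. Macrophages, with 8.18 CPM in mgR, were at the level of T and NK barcodes.

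Mmp3, which encodes stromelysin-1, an enzyme that cuts proteoglycans, fibronectin and other MMP precursors, was found mainly in fibroblasts, where it stood at 115 CPM (109–121) in WT, 365 CPM (358–372) in mgR and 256 CPM (250.2–263) in mgR-LOS. All 3 intervals were separate, with mgR highest and WT lowest. It was found in few cells, with UMIs in 179 of 1308 WT, 739 of 2424 mgR and 712 of 3044 mgR-LOS fibroblast barcodes. The single barcode richest in Mmp3 held 6.34%, 4.32% and 2.18% of these UMIs.

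Mmp14, the membrane-anchored collagenase, was the most evenly spread of the enzymes. Fibroblasts held 45.8 CPM (42.4–49.4) in WT, 81.5 CPM (78.3–84.8) in mgR and 99.96 CPM (96.1–104) in mgR-LOS, and SMC held 18.8 CPM in WT, 26.5 CPM in mgR and 32.1 CPM in mgR-LOS. The EC values were 49.4 CPM in WT, 54.8 CPM in mgR and 63.7 CPM in mgR-LOS, and in WT and in mgR-LOS macrophages the values were 24.02 and 30.5 CPM. Fibroblast and EC intervals overlapped in WT, and EC and macrophage levels stood at or above those of SMC in every library apart from mgR-LOS, where macrophages held 30.5 CPM against 32.1 CPM in SMC. Mmp19, a secreted enzyme of broad substrate range, was highest in monocyte and dendritic barcodes, at 76.7 CPM (67.1–87.4) in mgR and 91.4 CPM (75.5–109) in mgR-LOS. Fibroblasts followed at 18.4 CPM in WT, 30.9 CPM in mgR and 28.96 CPM in mgR-LOS, and SMC stayed below 1 CPM.

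The 2 enzymes tied to leukocytes had different holders. Mmp12, the macrophage elastase, stood at 70.9 CPM (53.9–91.4) in WT, 55.8 CPM (50.7–61.2) in mgR and 81.6 CPM (72.7–91.2) in mgR-LOS in macrophages and at 77.8 CPM (68.03–88.5) and 212 CPM (187–238) in monocyte and dendritic barcodes of mgR and mgR-LOS. The 12 monocyte and dendritic barcodes of WT were too few to use. Few cells carried it, since only 65 of 909 mgR macrophage barcodes had a UMI. Mmp9, which encodes gelatinase B, reached 767 CPM (640.0–911) in the 68 neutrophils of mgR, the only neutrophil class with over 50 barcodes. Macrophages held far less Mmp9, at 70.9 CPM (53.9–91.4) in WT, 14.2 CPM (11.7–17.1) in mgR and 26.5 CPM (21.6–32.2) in mgR-LOS.

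Of the inhibitors, Timp3 and Timp2 were the most abundant transcripts of the whole set. Timp3 stood at 2705 CPM in WT, 2917 CPM in mgR and 2311 CPM in mgR-LOS in fibroblasts, at 1934 CPM in WT, 1850.5 CPM in mgR and 1619.7 CPM in mgR-LOS in EC and at 813 CPM in WT, 833 CPM in mgR and 842 CPM in mgR-LOS in SMC, an order of fibroblast, EC and SMC that held in every library with separate intervals. Macrophages held 33.4 CPM in mgR, below the 98.2 CPM of T and NK barcodes, of which 58.8% came from 1 barcode. Timp2 stood at 1645 CPM in WT, 1747 CPM in mgR and 1973 CPM in mgR-LOS in fibroblasts, and here macrophages, at 699 CPM in WT, 624 CPM in mgR and 788 CPM in mgR-LOS, were on a par with EC, at 539 CPM in WT, 745 CPM in mgR and 694 CPM in mgR-LOS. SMC held 468 CPM in WT, 638 CPM in mgR and 469 CPM in mgR-LOS.

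Timp1 and Timp4 were the more restricted inhibitors. Timp1, a secreted inhibitor that many cells switch on during inflammation and injury, stood at 227 CPM (219.8–235) in WT, 631 CPM (622–639.6) in mgR and 221 CPM (215–227) in mgR-LOS in fibroblasts. The mgR level lay far above the other two, whose intervals overlapped. In SMC it stood at 16.6 CPM (15.6–17.8) in WT, 67.7 CPM (65.4–70.1) in mgR and 16.7 CPM (15.7–17.6) in mgR-LOS, again with overlapping intervals in WT and mgR-LOS. Timp4, an inhibitor known from heart and vessels, was low everywhere, at 19.98 CPM in WT, 33.96 CPM in mgR and 21.2 CPM in mgR-LOS in EC, 8.13 CPM in WT, 14.3 CPM in mgR and 20.4 CPM in mgR-LOS in SMC and 1.70 CPM in WT, 1.06 CPM in mgR and 1.06 CPM in mgR-LOS in fibroblasts.

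A level does not say where most of the molecules of a gene came from, because SMC outnumbered the other classes. Fibroblasts supplied 83.6%, 75.8% and 74.5% of all Mmp2 UMIs in WT, mgR and mgR-LOS and 95.9%, 86.3% and 81.97% of all Mmp3 UMIs. For Timp3 the SMC share was 48.8%, 27.6% and 45.01%, and for Timp4 it was 88.7%, 81.7% and 89.8%. Macrophages held the largest share of Mmp12, with 64.8%, 56.1% and 45.7%, followed in the mutant libraries by monocyte and dendritic barcodes, with 29.1% and 40.2%. Neutrophils, 0.842% of the kept barcodes of mgR, held 44.2% of its Mmp9, against 20.3% in WT and 13.3% in mgR-LOS. Macrophages held 30.7%, 38.7% and 63.3% of the Mmp9 UMIs of WT, mgR and mgR-LOS. In WT 47.4% of the Mmp9 UMIs lay in SMC, as 91 UMIs over 85 barcodes, a level of only 1.77 CPM.

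**Figure D2:**
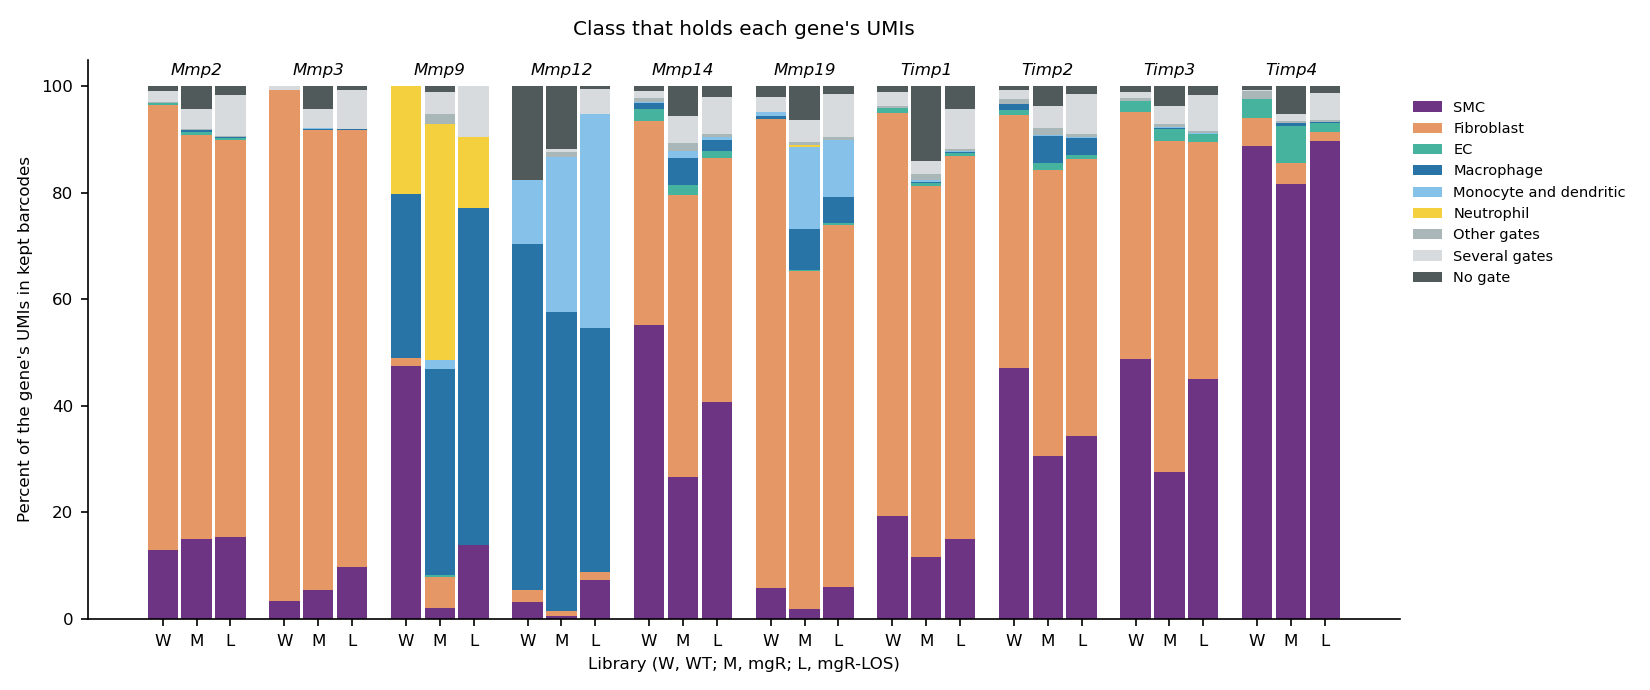
Share of all UMIs of each gene, in percent of the kept barcodes of a library, that came from each marker-gated class, as stacked bars for WT, mgR and mgR-LOS. Fibroblasts make up most of the bars of Mmp2, Mmp3, Mmp19 and Timp1, SMC most of that of Timp4, and myeloid classes most of that of Mmp12.

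The comparison of mgR with WT asked how the aorta of mutants not given losartan differed from WT at P45. A gene was counted as higher or lower past 1.5-fold among genes of at least 20 CPM in either library. In fibroblasts, 4 of the 7 members that passed that level were higher in mgR and none was lower, where 10.4% of all 6145 genes passed 1.5-fold in either direction and 6.85% were higher. The median log2 ratio of the 7 members was 0.74 against 0.01 over the 6145 genes. The 7 include Mmp19, which reached 20 CPM only in mgR. Here and in the other comparisons a member could pass that level through its higher library alone, so these counts and medians describe the genes that passed and not all 10.

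Mmp3 had the largest ratio in fibroblasts, 3.18-fold (3.02–3.35), followed by Timp1 at 2.77-fold (2.67–2.88). Mmp14 was higher by 1.78-fold (1.63–1.94) and Mmp19 by 1.67-fold (1.46–1.92), the latter at 1.18-fold when every barcode was thinned to 1000 UMIs. Mmp2 stood the other way, with a ratio of 0.688 (0.672–0.706) that did not pass 1.5-fold. Timp2 and Timp3, the abundant inhibitors, had ratios of 1.06 and 1.08.

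The share of cells with a UMI was compared at equal depth, where mgR was highest for Mmp3 and Timp1 and lowest for Mmp2, as in CPM. With each barcode thinned to 1000 UMIs, 5.81% of WT, 13.04% of mgR and 10.9% of mgR-LOS fibroblasts had a Mmp3 UMI (unthinned 13.7%, 30.5% and 23.4%). For Timp1 the thinned shares were 18.3%, 28.4% and 18.5% (unthinned 71.9%, 83.7% and 62.9%) and for Mmp2 49.2%, 36.2% and 39.8% (unthinned 95.5%, 89.7% and 88.9%). Thinning left out 0, 0 and 1 fibroblast barcode. In T and NK barcodes of mgR, 0.730% had a thinned UMI of each of these 3 genes (unthinned 1.46% for Mmp3, 3.65% for Timp1 and 3.65% for Mmp2), at a median depth of 4191 UMIs against 12179.5 in mgR fibroblasts.

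In SMC, Mmp2 and Timp1 were higher in mgR, 2 of the 5 members that passed 20 CPM, where 8.49% of all 5478 genes passed 1.5-fold and 4.87% were higher. Timp1 differed by 4.07-fold (3.77–4.39) and Mmp2 by 1.97-fold (1.86–2.09). Mmp14 and Timp2 were at 1.41-fold (1.29–1.53) and 1.36-fold (1.34–1.39), within the limit, and Timp3 was at 1.02. The median log2 ratio of the 5 members was 0.49 against -0.01 over the 5478 genes, and Timp1 and Mmp14 were among the 5 only through their mgR level. Mmp3 stayed below 20 CPM in SMC, at 1.19 CPM in WT, 15.1 CPM in mgR and 11.04 CPM in mgR-LOS, and the UMIs of mgR lay in 173 of 3062 barcodes. The fibroblast panel had medians of 32.8, 36.5 and 28.4 UMIs per 10000 in SMC of WT, mgR and mgR-LOS, and its part in the SMC values was not tested.

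Mmp2 thus differed in direction between the cell types of the wall. It was 1.97-fold (1.86–2.09) in SMC and 2.38-fold (1.56–3.76) in EC, against 0.688 (0.672–0.706) in fibroblasts. The EC value rested on 27 UMIs in WT and 127 in mgR. Over the whole libraries, where fibroblasts supply most of the Mmp2, the ratio was 1.09. With each class weighted to its WT share of barcodes it was 0.873. The difference between the classes was not tested, for want of a second library.

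**Figure D3:**
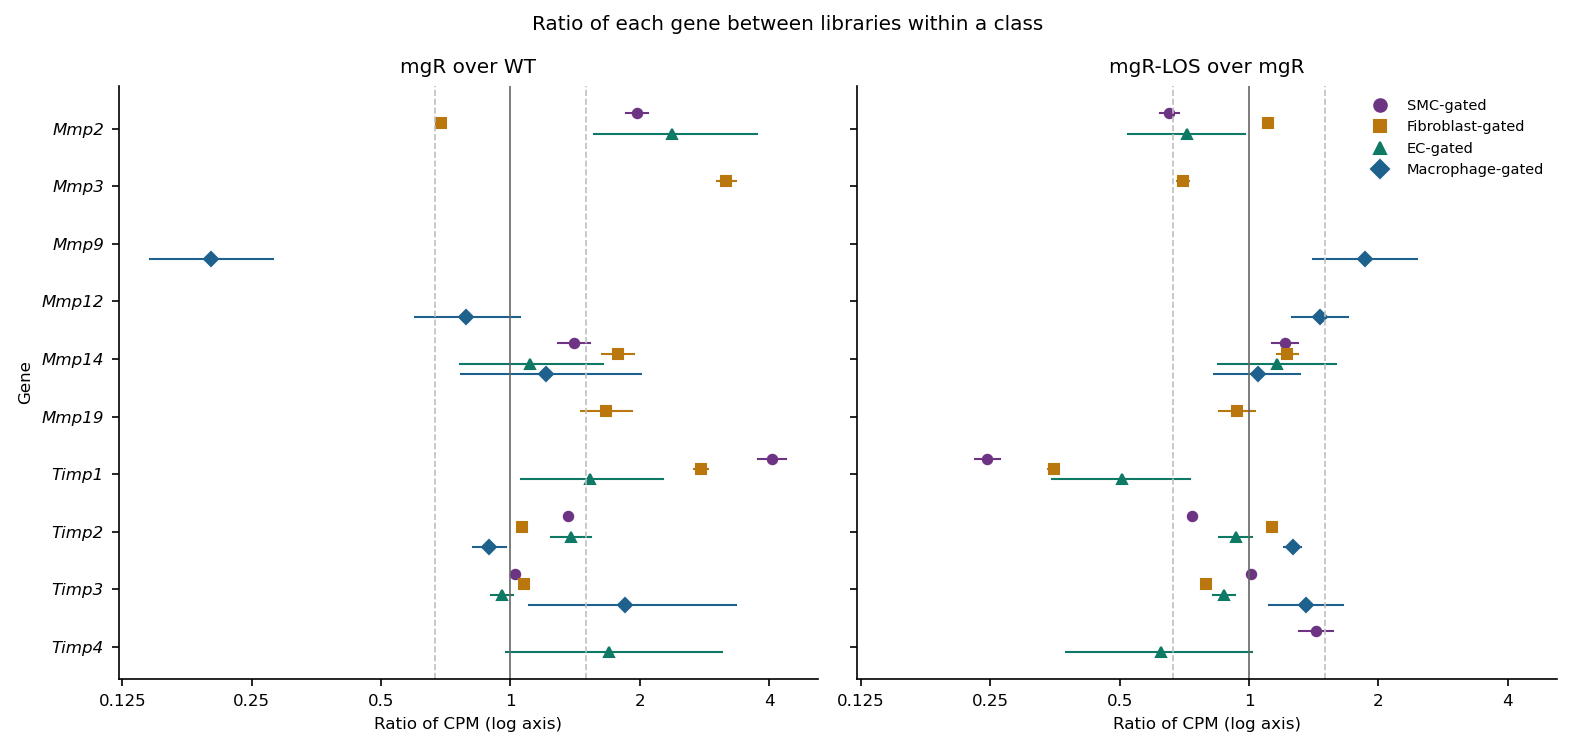
Ratio of mgR over WT and of mgR-LOS over mgR (log axis) for each gene of at least 20 CPM in either library in SMC, fibroblast, macrophage and EC barcodes, with bars for the exact 95% interval, which covers counting error only, and dashed lines at 1.5-fold. Timp1 lies to the right of the upper line in mgR over WT and to the left of the lower line in mgR-LOS over mgR in SMC, fibroblasts and EC.

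In EC, 3 of 6 members that passed 20 CPM were higher in mgR, where 18.1% of 6743 genes passed 1.5-fold and 11.2% were higher. Timp4 passed that level only through mgR. The 3 were Mmp2, Timp4 at 1.70-fold (0.975–3.12) and Timp1 at 1.53-fold (1.06–2.26). The Timp1 value missed 1.5-fold in 5 of 11 alternatives, and 1 barcode held 41.5% of the Timp1 UMIs of mgR EC. Without the 10 barcodes richest in each gene the ratio was 0.878, and under a stricter gate 0.808. Timp4, with 17 and 57 UMIs, came to between 1.20 and 1.98 over the alternatives and missed 1.5-fold in 2 of 11. Mmp14, Timp2 and Timp3 had ratios of 1.11, 1.38 and 0.957.

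In macrophages, Mmp9 was lower in mgR and Timp3 higher, 2 of 5 members that passed 20 CPM, where 13.7% of 5702 genes passed 1.5-fold (4.49% lower and 9.22% higher). The Mmp9 ratio was 0.201 (0.145–0.280), from 59 UMIs in 13 WT barcodes and 113 UMIs in 46 mgR barcodes. It turned with the processing, to 1.99 without the 10 richest barcodes and 1.25 with barcodes thinned, so its direction is not settled by these counts. Timp3, at 1.85-fold (1.10–3.36), was at background level in both libraries. Mmp12 and Timp2, the genes that macrophages do hold, had ratios of 0.787 (0.599–1.05) and 0.893 (0.819–0.975). Mmp19 stood at 2.40 and 13.97 CPM, below the level set for a call.

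The comparison of mgR-LOS with mgR asked which of these genes differed between treated and untreated mutant aortas. It used the same mgR library as the comparison with WT, so the 2 comparisons are not independent. Among the members that passed 20 CPM, Timp1 was the gene with the lowest ratio in SMC and fibroblasts. In fibroblasts it was 0.351 (0.340–0.361) and was the only 1 of 7 members to pass 1.5-fold, where 6.30% of 6130 genes did and 3.43% were lower. In SMC the Timp1 ratio was 0.246 (0.230–0.263), and Mmp2, at 0.652 (0.620–0.686), was also lower, 2 of 6 members where 7.41% of 5522 genes passed 1.5-fold and 3.68% were lower.

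The Timp1 values held under all 11 other ways of processing, between 0.319 and 0.442 in fibroblasts and between 0.197 and 0.297 in SMC. The SMC value of Mmp2 did not hold in the same way, since it stayed below 1 but missed 1.5-fold in 5 of the 11. Mmp3 in fibroblasts was at 0.702 (0.681–0.724), short of 1.5-fold, and Mmp14 at 1.23 (1.16–1.30). The median log2 ratio was -0.09 against -0.01 over the 6130 genes for the 7 members in fibroblasts and -0.21 against 0.01 over the 5522 genes for the 6 in SMC.

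Set against WT, a comparison that shares a library with each of the other two, mgR-LOS fibroblasts had a Timp1 ratio of 0.972 (0.931–1.02). Mmp3 was at 2.23-fold (2.11–2.35), Mmp14 at 2.18-fold (2.005–2.38) and Mmp19 at 1.57-fold (1.36–1.81), 3 of 7 members higher where 10.0% of 6140 genes passed 1.5-fold and 6.04% were higher. Mmp19 reached 20 CPM only in mgR-LOS. It missed 1.5-fold in 2 of 11 alternatives, per-barcode shares and thinning, with 1.28 as its lowest ratio. In the treated library the fibroblast levels of Mmp3 and Mmp14 were apart from WT and that of Timp1 was not past 1.5-fold. In SMC, Mmp14 at 1.70-fold (1.58–1.84) and Timp4 at 2.51-fold (2.25–2.81) were higher than in WT, 2 of 5 members where 7.34% of 5506 genes passed 1.5-fold and 4.34% were higher. Both were among the 5 only through their mgR-LOS level, with 18.8 CPM of Mmp14 and 8.13 CPM of Timp4 in WT. Timp4 stood barely above the 20 CPM limit, at 20.4 CPM, and dropped out of the count in 4 of 11 alternatives.

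In macrophages, Mmp9 was 1.86-fold (1.41–2.46) in mgR-LOS over mgR, 1 of 5 members where 6.74% of 5708 genes passed 1.5-fold and 4.24% were higher. Mmp9 reached 20 CPM only in mgR-LOS, and without the 10 barcodes richest in each gene it was below the level set for a call. Mmp12 was at 1.46 (1.26–1.70) in macrophages and at 2.72 (2.27–3.26) in monocyte and dendritic barcodes, where 33.5% of the mgR UMIs came from 1 barcode. Timp2 was at 1.26 (1.21–1.32) in macrophages. Relative to WT, macrophages of mgR-LOS had a Mmp9 ratio of 0.374 (0.268–0.525) and a Timp3 ratio of 2.51 (1.48–4.59), 2 of 5 members where 18.3% of genes passed 1.5-fold (5.04% lower and 13.3% higher). The first of these turned to 4.19 without the 10 richest barcodes, and the second reached 20 CPM only in mgR-LOS.

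In EC, Timp1 at 0.507 (0.348–0.727) and Timp4 at 0.625 (0.374–1.02) were lower in mgR-LOS, 2 of 6 members where 16.7% of 6797 genes passed 1.5-fold and 8.96% were lower. Neither value was firm. Timp1 came to 1.04 without the 10 richest barcodes, and Timp4 to 1.22 under a stricter gate. Mmp2 was at 0.718 (0.523–0.978) against mgR and at 1.71 (1.08–2.79) against WT, where it was the 1 member of 6 past 1.5-fold and 21.0% of genes were (12.1% higher). With barcodes thinned to 1000 UMIs this Mmp2 ratio was 1.07, no longer past 1.5-fold.

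Fibroblasts were not uniform in these genes. Barcodes were split by how many markers of a panel they held, which gives ranges and not cell types. Timp2 followed the Pi16 panel (Pi16, Dpp4 and others, known from adventitial fibroblasts). Barcodes with at least 5 of its 6 markers held 2973, 2756 and 3179 CPM of Timp2 in WT, mgR and mgR-LOS, and those with at most 1 held 1311, 1408 and 1555 CPM, so the ratio between the ranges was 2.27 (2.19–2.35) in WT and 1.96 (1.92–2.0) in mgR. Mmp14 was also higher in the Pi16-rich range, at 82.4, 108 and 135 CPM against 38.8, 74.5 and 85.98 CPM. Mmp3 and Timp3 ran the other way. Pi16-rich barcodes held 43.3, 49.2 and 36.05 CPM of Mmp3 against 140.2, 425 and 341 CPM in Pi16-poor barcodes, and 1353, 1766 and 1572 CPM of Timp3 against 3404, 3134 and 2644 CPM.

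Mmp3 was highest along the Gdf10 panel (Gdf10, Hsd11b1, Cxcl14, Apod and Smoc2). Barcodes with at least 3 of its markers held 252, 530.4 and 362 CPM of Mmp3, and those with none held 61.7, 235 and 137 CPM. Between mgR and WT the Mmp3 ratio was 2.11-fold (1.93–2.30) in the Gdf10-rich range and 3.81-fold (3.36–4.32) in the Gdf10-poor range, while in the Pi16-rich range it was 1.14-fold (0.889–1.47). The higher Mmp3 of mgR fibroblasts was therefore seen outside the Pi16-rich range, at this depth. Mmp19 had the same leaning, with 26.2, 38.7 and 41.2 CPM in Gdf10-rich against 15.9, 19.2 and 16.8 CPM in Gdf10-poor barcodes. Gdf10-rich barcodes of WT, mgR and mgR-LOS held 788, 438 and 549 CPM of Mmp2 and 1327, 2531 and 1859 CPM of Timp3. Gdf10-poor barcodes held 694, 632 and 579 CPM of Mmp2 and 3827, 4414 and 3443 CPM of Timp3. For both genes the mgR over WT ratio of the whole class did not hold evenly over these ranges.

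Timp3 stood out in another range, and so did Timp1 in mgR only. Barcodes with at least 3 of the markers Comp, Chad, Fmod, Cilp2 and Thbs4, genes known from cartilage and valve matrix, numbered 178, 117 and 101 and held 4965, 6378 and 5584 CPM of Timp3, against 1627, 2115 and 1761 CPM in fibroblasts with none of these markers. Timp1 in this range was 224, 1433 and 249 CPM, against 218, 465 and 237 CPM in fibroblasts with none of these markers. In the marker-rich range its ratio was 6.40-fold (5.85–7.001) in mgR over WT and 0.174-fold (0.152–0.198) in mgR-LOS over mgR. In fibroblasts with none of these markers the corresponding ratios were 2.14-fold (2.01–2.27) and 0.509-fold (0.487–0.532). Of the mgR UMIs in the marker-rich range, 18.3% came from 1 barcode. Mmp3 in that range was 22.8, 331 and 50.98 CPM, with 29.2% of the mgR UMIs in 1 barcode.

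**Figure D4:**
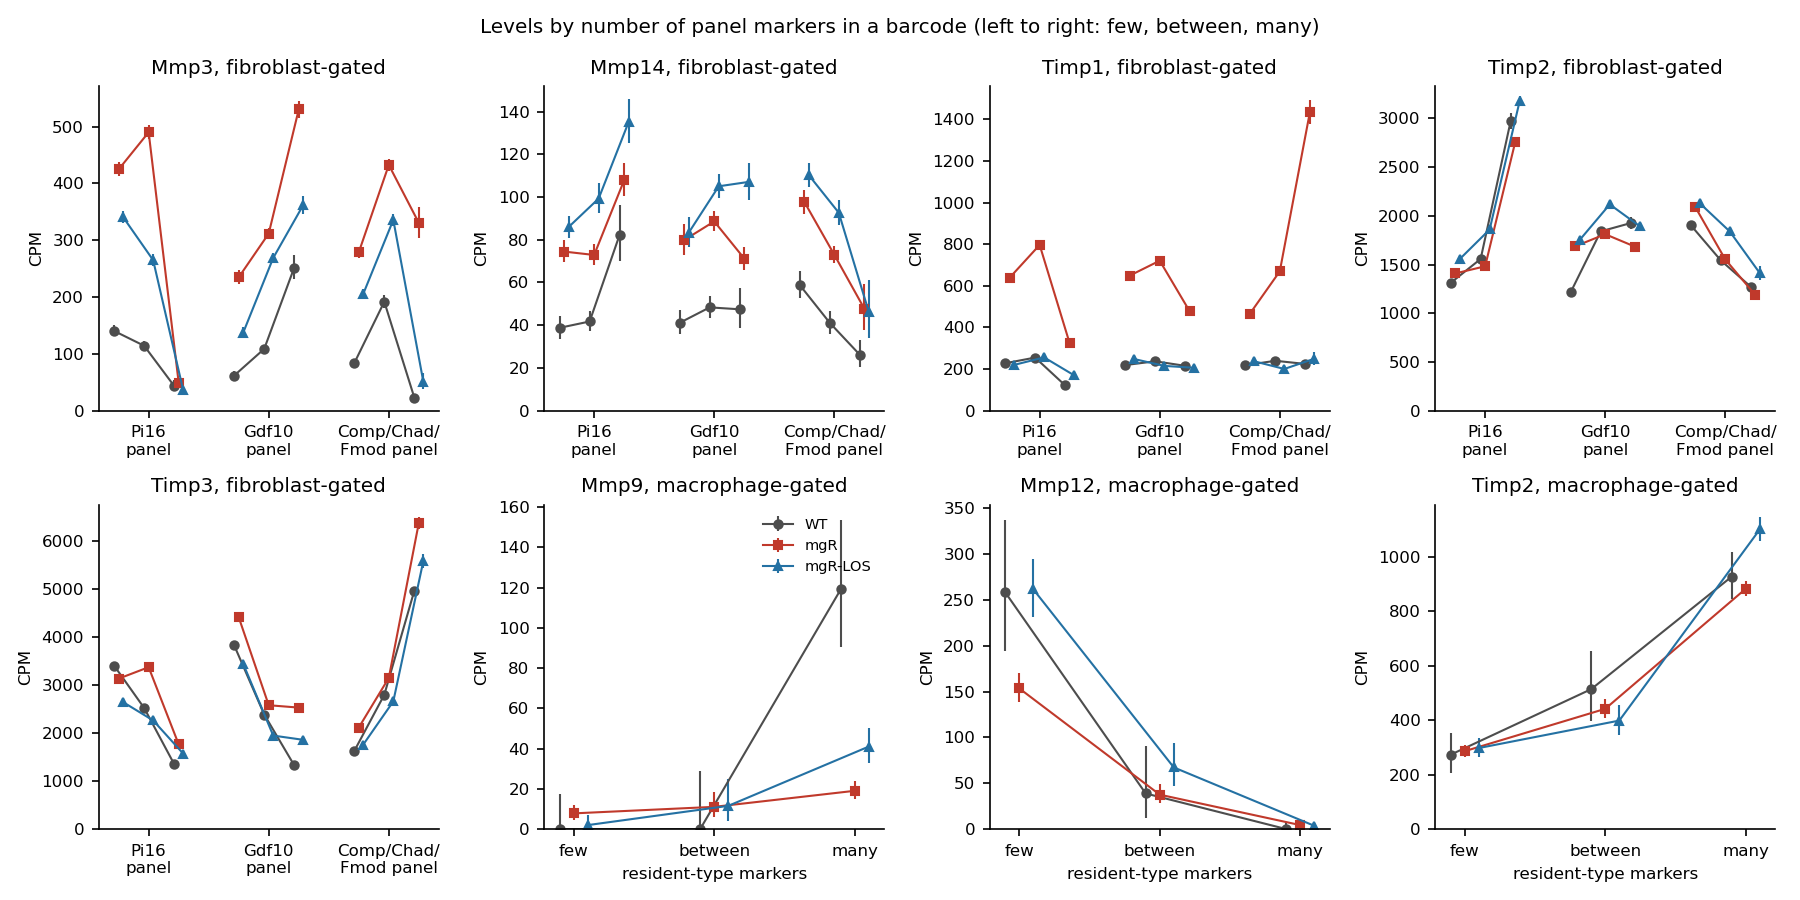
Level in CPM (linear axes) of Mmp3, Mmp14, Timp1, Timp2 and Timp3 in fibroblast barcodes with few, an intermediate number or many markers of the Pi16, Gdf10 and Comp/Chad/Fmod panels, and of Mmp9, Mmp12 and Timp2 in macrophage barcodes split likewise by the Folr2/Lyve1 panel, by library, with bars for the exact 95% Poisson interval. Timp2 is highest in Pi16-rich and Timp3 in Comp/Chad/Fmod-rich fibroblasts, and Mmp12 is near 0 in the macrophages rich in the Folr2/Lyve1 panel.

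SMC differed along a panel of genes known from modulated SMC (Vcam1, Spp1, Tnfrsf11b, Fn1, Ly6a and Lgals3). The panel is not particular to SMC, with mgR medians of 22.4 UMIs per 10000 in fibroblasts and 22.5 in monocyte and dendritic barcodes. The part of RNA from those classes in the SMC values was not tested. In SMC the median share of the panel was 3.84, 14.8 and 4.40 UMIs per 10000 in WT, mgR and mgR-LOS. At least 40 per 10000 were held by 4, 309 and 43 SMC barcodes. Mmp2 climbed with that share, from 29.5 CPM in mgR barcodes below 5 per 10000 to 78.9 CPM between 20 and 40 and 140.0 CPM above. At equal panel share below 40 per 10000 the libraries were near each other, and above it mgR-LOS stood at 97.2 CPM. Between 10 and 20 per 10000 Mmp2 was 58.9, 51.05 and 59.01 CPM, and between 20 and 40 it was 73.6, 78.9 and 75.5 CPM. Weighted to the WT shares of these bands, the Mmp2 ratio of mgR over WT was 1.09 in place of 1.97, and that of mgR-LOS over mgR was 1.10 in place of 0.652.

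Timp1 climbed more steeply, from 27.04 CPM in mgR barcodes below 5 per 10000 to 205 CPM at 40 and above. Here mgR stood highest at equal panel share in the bands below 20 per 10000. Below 5 per 10000 the levels were 12.3, 27.04 and 10.9 CPM, and between 10 and 20 they were 25.4, 35.4 and 19.3 CPM. In the band from 20 to 40, where WT was highest, they were 106, 86.99 and 55.96 CPM, where 1 barcode held 34.2%, 28.1% and 20.2% of the UMIs, and above 40 mgR-LOS held 215 CPM. At WT band shares the Timp1 ratio was 1.75 for mgR over WT and 0.478 for mgR-LOS over mgR. Timp2 was less steep along the panel, to 885 CPM from 494 CPM in mgR. Mmp3 did not follow it, with 25.9 CPM in the lowest and 12.3 CPM in the highest band of mgR.

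**Figure D5:**
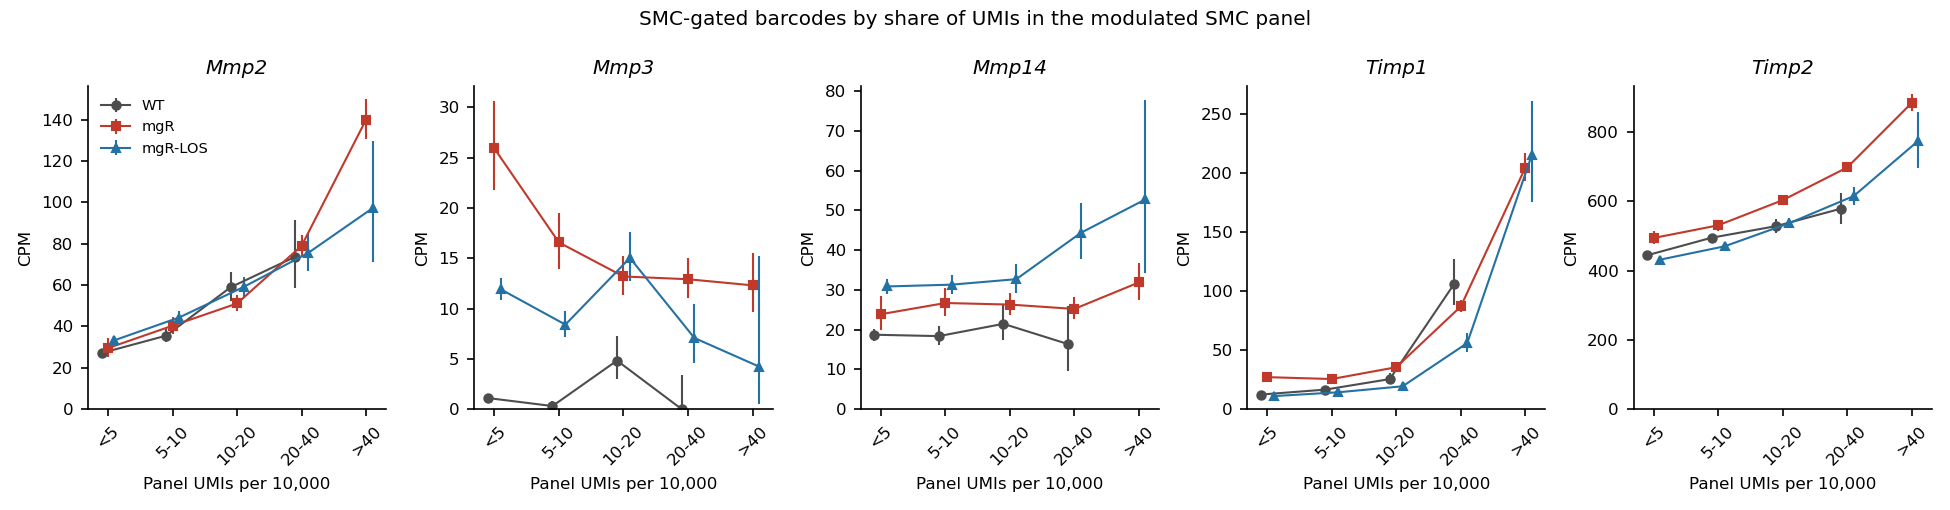
Level in CPM of Mmp2, Mmp3, Mmp14, Timp1 and Timp2 in SMC barcodes, by band of the share of UMIs (per 10000) taken by the modulated SMC panel, for WT, mgR and mgR-LOS, with bars for the exact 95% Poisson interval. Mmp2 and Timp1 climb with the panel share, and below 40 per 10000 the 3 libraries lie close at equal share for Mmp2, whereas Timp1 is higher in mgR in the 3 lowest bands.

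Macrophages fell into ranges with different enzymes. Those with at least 4 of the markers Folr2, F13a1, Lyve1, Cbr2 and Gas6, genes of resident-type macrophages, numbered 52, 435 and 304 and held Mmp9 at 119, 19.03 and 41.02 CPM. All 59 Mmp9 UMIs of WT macrophages lay there. Those with at most 1 of the markers numbered 20, 309 and 162 and held Mmp12 at 259, 154 and 262 CPM, against 0, 4.34 and 3.57 CPM in the marker-rich range, where the 0 of WT allows up to 6.06 CPM. Mmp14 leaned the same way as Mmp12, with 65.3 CPM in the marker-poor and 8.43 CPM in the marker-rich macrophages of mgR. Timp2 leaned the other way, with 927, 882 and 1100.0 CPM in marker-rich and 273, 286 and 297 CPM in marker-poor barcodes, and Gas6 of the panel was among the genes with the most similar pattern to Timp2.

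EC could be split by the same means, on fewer barcodes. Those with at least 4 markers of luminal aortic EC (Clu, Cytl1, Eln, Fbln5 and Gja5) held Mmp2 at 65.7, 181 and 110.0 CPM, against 7.55, 5.50 and 12.7 CPM with at most 2. The luminal-rich barcodes numbered 31, 79 and 55, and their Mmp2 ratio was 2.75-fold (1.66–4.80) in mgR over WT. The luminal panel is not particular to EC, with a median of 66.2 UMIs per 10000 in mgR SMC against 18.5 in mgR EC. The part of RNA from other classes in these Mmp2 values was not tested. Timp4 was tied to the capillary panel (Cd36, Fabp4, Gpihbp1, Rbp7 and Cd300lg), at 73.8, 98.5 and 94.3 CPM with at least 3 markers. Mmp14 was higher along the lymphatic panel (Prox1, Mmrn1, Ccl21a, Flt4 and Reln), at 130.4, 88.5 and 116 CPM against 26.5, 38.5 and 36.5 CPM, and so was Timp3, at 2670.2, 2767 and 2473 CPM against 1879, 1200.0 and 1499 CPM.

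The libraries differed in makeup, and its part in the summed levels was not tested beyond 1 reweighting. Macrophages were 1.62%, 11.3% and 4.22% of the kept barcodes and SMC 67.7%, 37.9% and 61.95%. Over whole libraries Mmp12 was 6.08-fold in mgR over WT, and with each class weighted to its WT share of barcodes it was 0.803-fold. Mmp19 went from 3.33 to 1.76 by the same weighting. Timp1 and Mmp3 had ratios from 4.32 to 3.15 and from 5.07 to 3.66. Mmp14 went from 1.85 to 1.58. For mgR-LOS over mgR, Timp1 was 0.258 over whole libraries and 0.341 at WT shares.

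Of 16 other Mmp genes in the files, 5 reached 20 CPM in a class of at least 50 barcodes. Mmp13, a collagenase gene of the chromosome 9 cluster, stood at 243 CPM in WT, 31.1 CPM in mgR and 59.6 CPM in mgR-LOS in macrophages, and 1 barcode held 47.03% of the WT UMIs. Mmp23 stood at 261 CPM in WT, 253 CPM in mgR and 294 CPM in mgR-LOS in fibroblasts and at 147 CPM in WT, 131 CPM in mgR and 122 CPM in mgR-LOS in SMC, and Mmp17 at 38.7 CPM in WT, 34.5 CPM in mgR and 30 CPM in mgR-LOS in SMC, all within 1.5-fold between libraries. Mmp8, the neutrophil collagenase, was at 303 CPM in mgR neutrophils, which also held 6 UMIs of Mmp23. Mmp25 was at 31.8 and 35.1 CPM in T and NK barcodes of mgR and mgR-LOS.

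Beside the TIMP genes, 20 regulators of MMP activity were examined as a list. In SMC, 14 passed 20 CPM and 4 were higher in mgR, with none lower, where 4.87% of all genes were higher. Among these were Plat, the tissue plasminogen activator (2.001-fold), the hyaluronan receptor Cd44 (1.81-fold) and Reck, a membrane-bound MMP inhibitor (1.53-fold). In mgR-LOS over mgR, 4 were lower in SMC and none higher, where 3.68% of all genes were lower, among them Plaur (0.334), Plat (0.549) and Reck (0.615). Fibroblasts of mgR had 3 of 14 higher, where 6.85% of all genes were, among them Serpine2 (1.94-fold) and Cd44 (1.93-fold), and in mgR-LOS over mgR 2 of 14 were lower, where 3.43% of all genes were, among them Serpine2 (0.500). The median log2 ratio of the list in mgR over WT was 0.21 against 0.01 over the 6145 genes in fibroblasts and 0.08 against -0.01 over the 5478 genes in SMC.

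In macrophages, Serpine2 was 2.58-fold in mgR over WT and Plau, the urokinase gene, 0.490-fold. They were the 1 higher and 1 lower of 14 that passed 20 CPM, where 13.7% of all genes passed 1.5-fold. In mgR-LOS over mgR, 2 of 14 were lower, where 6.74% of all genes passed 1.5-fold, among them Plaur, the urokinase receptor (0.551). In EC, 2 of 14 were higher and 1 lower in mgR over WT, where 18.1% of all genes passed 1.5-fold. Serpine2 (2.28-fold) was among the higher, and the lower was Ctsk, the collagen-degrading cathepsin K (0.482-fold). In mgR-LOS over mgR, 2 of 15 were higher and 2 lower in EC, where 16.7% of all genes passed 1.5-fold. The higher were A2m (12.3-fold, from 10 to 86 UMIs) and Ctsk (2.19-fold), and Serpine2 (0.656-fold) was among the lower.

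Of 10 genes that cells switch on during enzymatic digestion, some also differed between the libraries. In mgR over WT, 3 passed 1.5-fold in SMC (1 higher and 2 lower), where 8.49% of all genes did, and 2 in fibroblasts (both lower), where 10.4% did. Hspa1a was 0.407-fold in SMC and 0.436-fold in fibroblasts of mgR over WT, and 2.44-fold and 1.998-fold in mgR-LOS over mgR. Ier3 in SMC was 1.93-fold and then 0.508-fold, mgR being the highest library as for Timp1. In EC, 5 of the 10 were lower and 1 higher in mgR-LOS over mgR, where 8.96% of all genes were lower, with a median log2 ratio of -0.59 against -0.04 over the 6794 genes. That is the direction of Timp1 and Timp4 in EC. The part of these genes in the Timp1, Timp4 and Mmp3 values was not tested.

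Lastly, the genes whose pattern over 18 populations of class and library was most like that of each member were listed, by Pearson's r of log2(CPM + 10) among 6244 genes, as a description without a test. Populations of the same library share its depth and free RNA. Among the genes nearest to Timp3 were Tmtc1 (0.985) and Npdc1 (0.985), and Timp2 was nearest to Gas6 (0.950), Nfic (0.938) and Pmp22 (0.933). Timp1 was nearest to Fst (0.953), Piezo2 (0.950) and Gdf10 (0.949), of which Gdf10 also served to split the fibroblasts. Within fibroblasts, Gdf10-rich barcodes of WT, mgR and mgR-LOS held 215, 477 and 206 CPM of Timp1. Gdf10-poor barcodes held no less, at 219, 649 and 248 CPM. Timp4 was nearest to Crim1 (0.954), Pgm5 (0.953) and Sema3f (0.951). Mmp3 was nearest to Col12a1 (0.986), Cpxm2 (0.982) and Svep1 (0.980), the first a fibril-associated collagen, and Mmp2 to Boc (0.975), Rian (0.974) and Lum (0.973), the last a marker of the fibroblast gate. Mmp9 was nearest to Gm34589 (0.992), F630028O10Rik (0.969) and P2ry13 (0.965), Mmp12 to Tifab (0.986), Ms4a8a (0.976) and Tep1 (0.974), Mmp14 to Stx2 (0.951), Hook3 (0.946) and Vat1 (0.943) and Mmp19 to Gfpt1 (0.864), Vegfa (0.861) and Spp1 (0.856). The values of Mmp19 were the lowest of the set.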

How the data were processed

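The authors dissected ascending aortas at P45, digested them with elastase and collagenase A, made 10x 3′ libraries and deposited raw UMI counts per gene and barcode for 1 library per condition (3, 3 and 4 mice pooled for WT, mgR and mgR-LOS). Per the file headers the counts came from Cell Ranger 5.0.1 for WT and mgR and 6.0.1 for mgR-LOS, whereas the labels give 6.0.1 for all, on the mm10 genome. Which of these is right was not settled, and a version difference would fall between mgR-LOS and the other libraries.

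Limits of 600 to 5000 genes and a mitochondrial share no larger than 10% set which barcodes entered. Each was gated on panels of 6 to 8 marker genes by the panel's UMIs per 10000 and by how many markers were seen (SMC at least 150 and 4, fibroblast 100 and 5, EC 20 and 4, macrophage 40 and 4, monocyte and dendritic 15 and 3). These limits were chosen after seeing the data, and the genes and lists were chosen with earlier results of these data known. Monocyte and dendritic barcodes yielded to other leukocyte gates and SMC to pericytes. No doublet caller was run, and barcodes meeting several gates were held apart as possible doublets. The pair SMC and fibroblast made up 52, 160 and 377 of the 67, 357 and 550 such barcodes. In mgR this pair had a median of 8627.5 UMIs, below the 15189.5 of SMC and the 12179.5 of fibroblasts. Another 50 were SMC and erythroid, with a median of 1341. The study describes a mutant SMC cluster with more Dcn, Lum and Hba-a1. Whether its cells were among those held apart was not tested. Among all kept barcodes, of whatever class, 94, 419 and 333 had a fibroblast panel share within 20% of the limit on either side. For the SMC panel these numbers were 32, 271 and 198. A macrophage or EC was thus called by its genes, while the study named clusters, so classes here need not match its clusters.

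UMIs were summed per class and library and given as CPM with exact Poisson intervals, ratios with exact binomial intervals (scipy 1.17.1, numpy 2.4.6, pandas 2.3.3, Python 3.11.15, matplotlib 3.10.9). With 1 library per condition no test was run, and intervals cover counting error only. Calls were made past 1.5-fold at 20 CPM or more. Named were all 10 members, other Mmp genes at 20 CPM or more, regulators past 1.5-fold and the 3 genes of most similar pattern among genes reaching 50 CPM, of which some are not reported here. For shares of cells with a UMI, barcodes were thinned to 1000 UMIs. Summing and calling were tested on simulated counts. Alternatives were another mitochondrial limit, a minimum of 200 genes, stricter and looser gates, and the leading class for barcodes meeting several gates. Others were per-barcode shares, thinning, another scaling and CPM without mitochondrial, ribosomal and globin genes. Added after seeing the data were leaving out barcodes near the gate and leaving out the 10 barcodes richest in a gene.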

Additional observations from a re-analysis of the deposited data

Results flagged for a closer look

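The ratio of mgR over WT for Mmp2 ran in opposite directions in different cell types, 1.97 in SMC and 2.38 in EC against 0.688 in fibroblasts. This difference was not tested, since each condition had 1 library. The counting intervals of the SMC and fibroblast ratios lay on opposite sides of 1, and the share of SMC with many modulated markers differed between the libraries.

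For mgR-LOS over mgR, Timp2 was at 1.26 in macrophages against 0.735 in SMC, a difference that was not tested. Likewise Timp3 was at 1.36 in macrophages, where its level was near background, against 0.792 in fibroblasts, also not tested. None of these 4 ratios passed 1.5-fold.

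Barcodes that met no gate, which entered the whole-library sums but no comparison by class, also held more Timp1 and Mmp3 in mgR. Timp1 stood there at 99.8 CPM (74.6–131) in WT, 1015 CPM (983–1047) in mgR and 218 CPM (196–243) in mgR-LOS, a ratio of 10.2 in mgR over WT. Mmp3 had 0 UMIs in WT against 141 CPM in mgR, at least 24.6-fold higher with the WT library set at a floor of 3 counts. A single barcode held 21.3% of the Timp1 UMIs of mgR. Among no-gate barcodes with under 20 SMC panel UMIs per 10000, which numbered 25, 101 and 73, Timp1 was at 118, 2112 and 219 CPM. Of these UMIs 1 barcode held 40.0%, 36.2% and 28.6%. In the no-gate ranges from 20 to 150 per 10000, Timp1 of mgR was at 579 to 597 CPM. Of the Mmp3 UMIs of mgR, 1 barcode held 29.0% in the range under 20 per 10000. In the ranges from 20 to 150, 1 barcode of each held 33.3% to 53.5%. Relative to all kept barcodes of mgR, the genes that led its no-gate barcodes were Dct, Cxcl5, Pmel, Saa3 and Mlana. Of these, Dct, Pmel and Mlana are melanocyte genes. This is not an order by level, since Igkc stood higher, at 3818 CPM against 291 CPM of Dct. The no-gate barcodes of mgR had medians of 58.2 fibroblast panel and 44.5 SMC panel UMIs per 10000. They held 14.1% of all Timp1 UMIs of mgR. What cells they are was not tested.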

How the results depend on the processing

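Over 11 alternatives, 2 of them chosen after seeing the data, 73 of 88 counts of members past 1.5-fold stayed within 1.5 times the main count, among them all counts for mgR over WT in SMC, fibroblasts and EC. A count that stayed need not hold the same genes, since in EC Timp1 missed 1.5-fold in 5 of the 11 and Timp4 in 2. Of 17 calls in mgR over WT and mgR-LOS over mgR, 9 passed 1.5-fold under every alternative. For mgR-LOS over mgR in SMC the count was 1 in place of 2 under the stricter gate, the looser gate, the leading class for barcodes meeting several gates, without barcodes near the gate and without the 10 richest barcodes. In fibroblasts it was 2 in place of 1 under the looser gate. In macrophages the count for mgR over WT was 4 in place of 2 under the looser gate, and for mgR-LOS over mgR it was 2 in place of 1 under the 5% mitochondrial limit, both other gates and per-barcode shares, and 3 with thinning. In EC the count for mgR-LOS over mgR was 0 in place of 2 under the stricter gate and 1 with the leading class or without the 10 richest barcodes.

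Direction turned for Mmp9 in macrophages, to 1.25 (mgR over WT) and 2.27 (mgR-LOS over WT) with thinning and to 1.99 and 4.19 without the 10 richest barcodes. It turned for Timp1 in EC, for mgR over WT to 0.808 under the stricter gate, 0.947 with thinning and 0.878 without the 10 richest barcodes, and for mgR-LOS over mgR to 1.04 without them. It turned for Timp4 in EC, for mgR-LOS over mgR, to 1.22 under the stricter gate and 1.11 with the leading class. The cause of these turns was not tested.

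No paired analysis was possible because each condition had 1 library. EC and macrophages of WT had 104 and 87 barcodes and neutrophils of mgR 68, which limits the precision of their values. Pooling hides the spread between mice, and the mgR library entered 2 comparisons.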

Other observations

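Classes with under 50 barcodes in every library were left out of the comparisons, and their values are given here with counting intervals only. Mesothelial barcodes, the cells that cover the outer surface, numbered 10, 27 and 18 and held Timp2 at 2744 CPM (2422–3097) in WT, 2328 CPM (2171–2493) in mgR and 2445 CPM (2185–2729) in mgR-LOS, above the fibroblast levels of each library. Timp1 in them was 94.3 CPM (43.1–179) in WT, 714 CPM (629–808) in mgR and 68.8 CPM (31.5–131) in mgR-LOS, with 25.9% of the mgR UMIs in 1 barcode and 21 of 27 barcodes holding a UMI. The mgR interval lay above the other two, as in fibroblasts and SMC.

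Pericyte barcodes numbered 32, 25 and 32 and held Timp3 at 1003 CPM in WT, 1461 CPM in mgR and 988 CPM in mgR-LOS and Timp2 at 505 CPM in WT, 979.8 CPM in mgR and 726 CPM in mgR-LOS. Schwann cell barcodes, which ensheathe nerve fibers, numbered 9, 17 and 24 and held Timp3 at 2113 CPM in WT, 893 CPM in mgR and 2131 CPM in mgR-LOS. Their Timp1, at 69.3 CPM in WT, 649 CPM in mgR and 12.3 CPM in mgR-LOS, came in mgR to 81.1% from 1 barcode.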
